A study of Homo sapiens with 12 samples.

Results

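The difference between the responses of 2 human multiple myeloma cell lines to IT848, a compound that the series describes as an inhibitor of NF-kB, was examined across genes. U266 and MM.1S cells were each kept for 6 h with the solvent DMSO or with 6 µM IT848, and each of the 4 groups (U266 with DMSO, U266 with IT848, MM.1S with DMSO, MM.1S with IT848) held 3 RNA sequencing libraries, 12 in all. Both lines were cultured alike (RPMI with fetal bovine serum). Nothing in the labels tells whether the 3 libraries of each group are separate cultures, so p-values measure the spread between these libraries, which may be technical. For every gene the response of U266 was subtracted from that of MM.1S, on the log2 scale, and this difference of responses (the interaction) was tested. Genes were then kept if they were well expressed in both lines, meaning a mean CPM (count scaled by library size, as a rate per fixed total) of at least 10 over the 6 libraries of each line. Treated and untreated libraries both enter that mean, so a gene that responds can pass through its higher group alone. Of 16782 genes tested, 7848 were well expressed, and 240 of these had either opposite responses (94) or a response restricted to 1 line (141 in MM.1S, 5 in U266).

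Several stress programmes bear on these genes. KEAP1 holds the factor NRF2 in check until electrophiles or oxidants modify it, and NRF2 then induces genes of glutathione, thioredoxin, NADPH and heme metabolism. HSF1, released when proteins misfold, induces chaperones, and ATF4, made when eIF2a is phosphorylated, induces genes of amino acid supply and growth arrest. The immediate early genes, such as JUN and EGR1, answer kinase signalling within minutes to hours, and E2F factors drive the genes of DNA replication. In plasma cells and myeloma NF-kB is known to support survival, in part through anti-apoptotic genes. It also induces chemokine genes and the genes of its own IkB inhibitors, which shut it off.

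The lines carried their known marks: cyclin D1 (CCND1) and IL6 together stood at 387 to 513 CPM in the U266 libraries and 2.86 to 6.31 in those of MM.1S, and MAF, ITGB7 and CCND2 together at 402 to 475 and 8848 to 10634. The plasma cell markers SDC1, TNFRSF17, IRF4, PRDM1 and XBP1 summed to 1772 to 3396 CPM in all libraries, and of 8 markers for each of T and NK, myeloid, stromal or endothelial, and epithelial or erythroid cells, 7, 6 to 7, 3 and 6 to 7 averaged below 1 CPM in each group. CPM are shares of a library, so a change in total RNA per cell cannot be seen in them. Library totals were 50627690 to 72039748 counts summed over transcripts. A pair of libraries showed low levels of genes of the other line: IT848 replicate 1 of U266 had 0.734% of the MM.1S level of 8 genes with at most 3 counts in U266 under DMSO (0.111 and 0.0923% in replicates 2 and 3), and DMSO replicate 2 of MM.1S had 0.396% of the U266 level of 18 genes with at most 3 counts in treated MM.1S (0.0348 and 0.0707% in replicates 1 and 3). At those shares reads of the other line would make up a median of 0.733 and 0.430% of the level of the 240 genes in these libraries, and at most 9.68% (IQGAP2) and 7.91% (MAP2). In MM.1S long transcripts were relatively more abundant under DMSO than under IT848: across 8953 genes, deviations from the line mean were related to transcript length with Spearman's rho of 0.170 to 0.456 under DMSO and of −0.491 to 0.0307 under IT848. In U266, across 8768 genes, rho was 0.00475 to 0.220 and −0.286 to 0.128.

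The response differed between the lines for 2924 of 16782 genes (17.4%) at an adjusted p below 0.05 by edgeR's quasi-likelihood test, 1424 of them higher in MM.1S (8.49%) and 1500 lower (8.94%). Without these 2 libraries 1712 genes passed. Among the well expressed genes 2087 passed (26.6%). Of these, 94 rose in one line and fell in the other, each past the threshold (1.20% of well expressed genes). A further 141 changed at least 1.5-fold in MM.1S while the 95% interval of the U266 response lay within 0.32 of 0 on the log2 scale (1.80%), and 5 did the reverse (0.0637%). Another 218 moved in the same direction by unequal amounts (2.78%), 192 of them further in MM.1S and 26 further in U266. The remaining 1629 could not be placed: 1439 were called in MM.1S but not in U266, with a U266 interval too wide or an MM.1S change too small for the definition, 127 in U266 but not in MM.1S, and 63 in neither. The calls that place a gene come from the same contrasts, so the counts of a class describe the fit and test nothing further. The weakest of the 94 was C11orf84, whose fall in MM.1S had an adjusted p of 0.04996, and RHOC just missed with 0.0511 in U266. At the edge of the restricted class, the U266 interval of IQGAP2 reached 0.320 on the log2 scale, and that of the readthrough symbol TGIF2-C20orf24 reached 0.324.

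**Figure D1:**
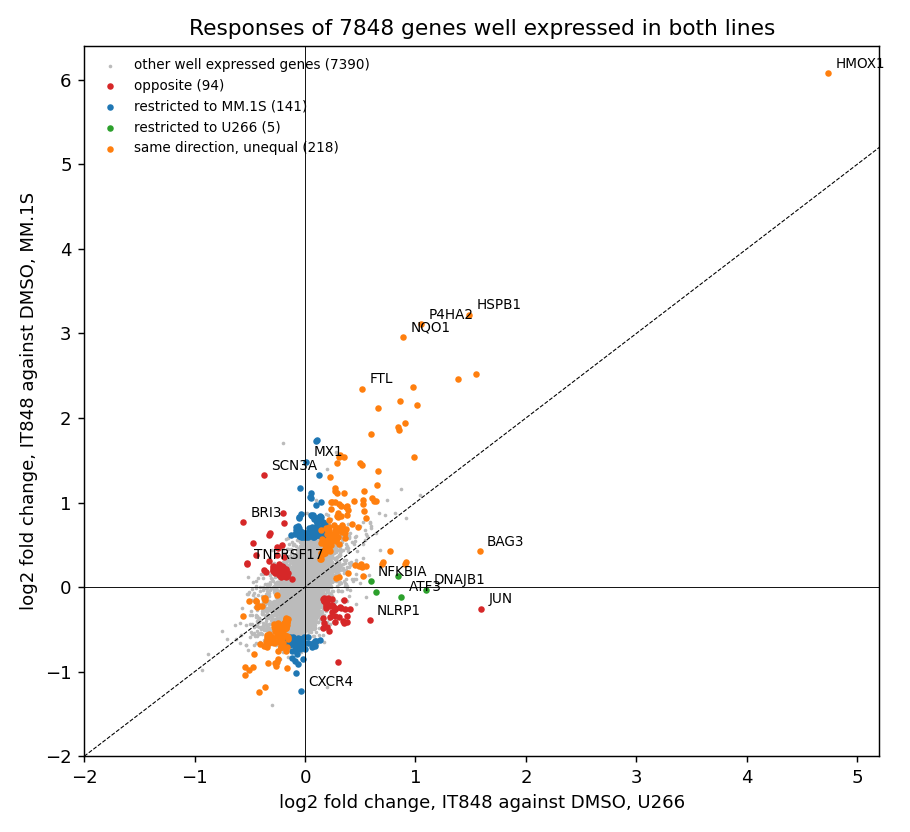
Response to IT848 in U266 (horizontal axis, log2 fold change against DMSO) and MM.1S (vertical axis) for 7848 well expressed genes, coloured by class, with the line of equal response dashed. HMOX1 lies furthest out in both lines, the 5 genes restricted to U266 lie on the horizontal axis, and JUN and BAG3 lie far below the dashed line.

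Of the genes with opposite responses, 44 rose in U266 and fell in MM.1S. JUN, which encodes a subunit of the transcription factor AP-1, was measured at 20.6, 21.7 and 21.8 CPM under DMSO and 66.1, 59.9 and 67.8 under IT848. In MM.1S it was at 36.7, 37.5 and 36.9 CPM under DMSO and 31.2, 31.2 and 30.8 under IT848. Treated libraries were thus all higher than controls in U266 and all lower in MM.1S, with log2 fold changes of 1.60 ± 0.05 and −0.25 ± 0.05 (± SE) and a difference of −1.85 ± 0.07 (adjusted p 2.8e-09) by edgeR's quasi-likelihood test. FBXO32, which encodes the ubiquitin ligase subunit atrogin-1, had the largest fall of this set in MM.1S, from 40.2, 38.1 and 36.4 CPM to 19.7, 21 and 21.3. In U266 it rose from 23.1, 27.3 and 24.3 to 30.6, 29.7 and 31.8 CPM, and its difference of responses was −1.19 ± 0.09 (adjusted p 1.2e-06) by the same test.

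Ranked by the smaller of its changes in the lines, NLRP1, which encodes a sensor that assembles inflammasomes, came first in this orientation. It stood at 127, 114 and 116 CPM under DMSO and 195, 175 and 167 under IT848 in U266 and at 226, 211 and 189 CPM under DMSO and 184, 154 and 141 under IT848 in MM.1S. The groups did not overlap in either line, although treated MM.1S libraries were spread over 141 to 184 CPM. CASP1, which encodes the protease activated by inflammasomes and was picked out after its values were seen, moved the other way, by −0.25 in U266 and 0.46 in MM.1S. Leaving out the libraries with genes of the other line, its change in U266 had an adjusted p of 0.087 by edgeR. GADD45B, a growth arrest gene, was at 21.5, 18.2 and 20.1 CPM under DMSO and 27.2, 24.3 and 26.4 under IT848 in U266. In MM.1S it was at 55.6, 56.1 and 57.6 CPM under DMSO and 43.6, 42.7 and 40.6 under IT848. SESN2, encoding the leucine sensor sestrin 2 and known to answer both p53 and ATF4, had log2 fold changes of 0.38 in U266 and −0.34 in MM.1S. Of 21 well expressed genes on the p53 target list used here, 4 had opposite responses (1.20% of all well expressed genes), all with the rise in U266. They were GADD45B, SESN2, the exonuclease gene AEN (0.16 in U266 and −0.36 in MM.1S) and CDKN1A, which encodes the cell cycle inhibitor p21 (0.17 in U266 and −0.16 in MM.1S). Membership of that list is no evidence that p53 drives a gene here. AEN and CDKN1A fall outside the naming rule and are given to complete the count.

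Of the other named genes of this orientation, TSC22D3, which encodes the glucocorticoid-induced leucine zipper GILZ, had separate groups in both lines: 24.5, 24.3 and 24.6 CPM rose to 30.3, 30.3 and 27.9 in U266, and 151, 150 and 152 fell to 112, 115 and 114 in MM.1S. CDK6, a kinase that works with D cyclins, had log2 fold changes of 0.27 in U266 and −0.26 in MM.1S, from a level of 49.8, 53.5 and 51.9 CPM under DMSO in U266 and 305, 295 and 288 in MM.1S. IRF2BPL had log2 fold changes of 0.27 in U266 and −0.34 in MM.1S, the snoRNA host gene SNHG12 of 0.30 in U266 and −0.36 in MM.1S, and EDEM1, which helps clear misfolded glycoproteins from the endoplasmic reticulum, of 0.35 in U266 and −0.15 in MM.1S. IL21R, the receptor gene for interleukin 21, had log2 fold changes of 0.35 in U266 and −0.42 in MM.1S, and CLEC2D, a lectin gene whose protein is a ligand of an NK cell receptor, of 0.34 in U266 and −0.40 in MM.1S. Without the 2 libraries with genes of the other line, the differences of IL21R, CLEC2D and EDEM1 stayed called (adjusted p 0.0044, 0.0062 and 0.0038 by edgeR). Their changes in U266 and MM.1S did not both pass then. By the same test the adjusted p were 0.054 and 0.0070 for IL21R, 0.058 and 0.012 for CLEC2D and 0.0038 and 0.124 for EDEM1. With the length trend taken out EDEM1 also did not meet the definition. IKBKB, which encodes the kinase that marks IkB for destruction, was picked out after its values were seen and moved by 0.25 in U266 and −0.22 in MM.1S, a difference of −0.47 ± 0.08 (adjusted p 7.8e-04) by edgeR's quasi-likelihood test.

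The reverse orientation, a fall in U266 and a rise in MM.1S, was found for 50 genes. BRI3 came first when ranked by the smaller of its changes: it was at 85.1, 85.1 and 84.5 CPM under DMSO and 57.7, 54 and 61.1 under IT848 in U266 and at 30.8, 28.6 and 28.3 CPM under DMSO and 46.3, 50.8 and 52.3 under IT848 in MM.1S. Each set of treated libraries lay clear of its controls, and the difference of responses was 1.33 ± 0.08 (adjusted p 1.3e-07) by edgeR's quasi-likelihood test. SCN3A, a sodium channel gene, fell in U266 from 25.6, 24.6 and 24 to 18.1, 18.5 and 20.6 CPM. In MM.1S it rose from 14.8, 13.5 and 16.6 to 39, 36.7 and 36.9 CPM, the largest rise in MM.1S among the 50 (log2 fold change 1.33 ± 0.07).

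TNFRSF17 encodes BCMA, the receptor of plasma cells that antibody and cell therapies of myeloma target. Its level in U266 was 134, 136 and 128 CPM under DMSO and 91, 91.6 and 93.6 under IT848, and in MM.1S it was 102, 108 and 115 CPM under DMSO and 118, 126 and 149.5 under IT848. It thus fell in U266 (−0.53 ± 0.07) and rose in MM.1S (0.27 ± 0.07), where treated libraries were spread more widely than controls. ELL2, an elongation factor gene known for its part in immunoglobulin secretion, moved the same way by −0.22 in U266 and 0.12 in MM.1S. Among 23 well expressed plasma cell identity genes these were the 2 with opposite responses (1.20% of all well expressed genes), while SDC1 fell in both lines (−0.54 in U266 and −1.04 in MM.1S). Most of the list fell in both lines. Of its 30 genes tested, 18 fell and 1 rose in U266 (4.98 and 4.03% of all genes). In MM.1S 17 fell and 4 rose (19.6 and 18.7% of all genes). HDAC9, a histone deacetylase gene, had log2 fold changes of −0.44 in U266 and 0.38 in MM.1S, and AMACR, a racemase gene of branched fatty acid oxidation, of −0.33 in U266 and 0.61 in MM.1S. The long noncoding RNA gene LINC01480 had log2 fold changes of −0.31 in U266 and 0.64 in MM.1S, CEACAM21 of −0.52 in U266 and 0.28 in MM.1S, TNFAIP8L1 of −0.32 in U266 and 0.31 in MM.1S and the potassium channel gene KCNS3 of −0.25 in U266 and 0.38 in MM.1S.

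Interferon-stimulated genes with opposite responses were also all of this orientation. None of them met the definition without the 2 libraries with genes of the other line. PARP9, an ADP-ribosyltransferase gene of the interferon response, stood at 65.2, 58.1 and 57.7 CPM under DMSO and 51.9, 54.2 and 51.3 under IT848 in U266. In MM.1S, where its level was lower, it was at 12.5, 12.4 and 13 CPM under DMSO and 24.1, 22 and 23.4 under IT848. The groups were separate in both lines, and the difference of responses was 1.08 ± 0.08 (adjusted p 1.1e-06) by edgeR's quasi-likelihood test. SAMD9L, an antiviral and growth-restraining gene, had log2 fold changes of −0.21 in U266 and 0.50 in MM.1S. IFIH1, which encodes the RNA sensor MDA5, had −0.19 in U266 and 0.13 in MM.1S. It completes the count of 3 of 19 well expressed interferon-stimulated genes (1.20% of all well expressed genes). FDFT1, which encodes squalene synthase, had log2 fold changes of −0.19 in U266 and 0.36 in MM.1S, and ALDOC, a glycolytic aldolase gene, of −0.21 in U266 and 0.25 in MM.1S.

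Differences ran from −1.85 (JUN) to −0.30 (LARS) among the 44 genes and from 0.21 (GNB1) to 1.70 (SCN3A) among the 50. Some further members of either set were picked out after their values were seen. Of genes that rose in U266 and fell in MM.1S, MCM6, a subunit gene of the replicative helicase, had log2 fold changes of 0.20 in U266 and −0.47 in MM.1S, GINS3, of the same complex, 0.23 in U266 and −0.22 in MM.1S, and BLM, the Bloom syndrome helicase gene, 0.21 in U266 and −0.52 in MM.1S. The snoRNA host genes SNHG1 (0.16 in U266 and −0.49 in MM.1S) and SNHG3 (0.20 in U266 and −0.20 in MM.1S) moved as SNHG12 did. TXNIP, which encodes an inhibitor of thioredoxin, had 0.22 in U266 and −0.35 in MM.1S, and IL23A, a subunit gene of interleukin 23, 0.33 in U266 and −0.25 in MM.1S. The amino acid transporter genes SLC7A1 (0.17 in U266 and −0.16 in MM.1S) and SLC1A4 (0.20 in U266 and −0.14 in MM.1S) and the leucyl-tRNA synthetase gene LARS (0.17 in U266 and −0.13 in MM.1S) had small changes. Genes that fell in U266 and rose in MM.1S included MARCKS, a substrate of protein kinase C (−0.37 in U266 and 0.20 in MM.1S), the adducins ADD3 (−0.29 in U266 and 0.19 in MM.1S) and ADD1 (−0.16 in U266 and 0.13 in MM.1S), moesin, encoded by MSN (−0.16 in U266 and 0.15 in MM.1S), and annexin A6, encoded by ANXA6 (−0.24 in U266 and 0.14 in MM.1S). Others were PRKCD, which encodes protein kinase C delta (−0.27 in U266 and 0.16 in MM.1S), MAP2K2, which encodes MEK2 (−0.18 in U266 and 0.22 in MM.1S), IRS1, the insulin receptor substrate gene (−0.21 in U266 and 0.20 in MM.1S), and GNAI2, a G protein subunit gene (−0.18 in U266 and 0.17 in MM.1S). PCTP, which encodes a phosphatidylcholine transfer protein, had −0.19 in U266 and 0.76 in MM.1S.

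**Figure D2:**
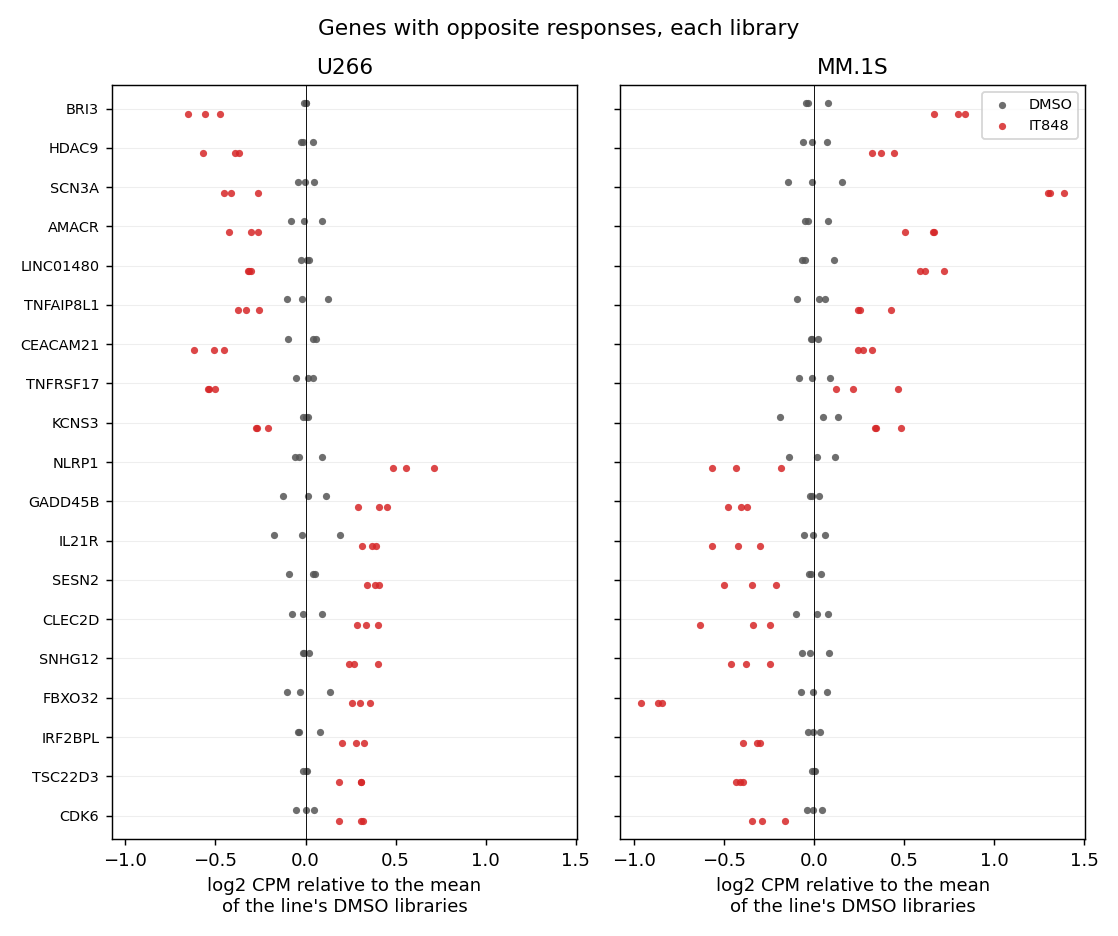
Level of 19 named genes with opposite responses in each library, as log2 CPM relative to the mean of the DMSO libraries of its line (grey points DMSO, red points IT848, 3 libraries each). The upper 9 genes lie left of 0 in treated U266 and right of 0 in treated MM.1S, and the lower 10 the other way round.

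Of the 94 opposite genes, 93 had no overlap between treated and control libraries in either line (25.3% of well expressed genes), LPIN1 being the exception in MM.1S. As the calls chose these genes, that count is a description. When the 2 libraries with genes of the other line were dropped, all 94 kept the sign of the difference and 93 stayed called (GNB1 had an adjusted p of 0.0555 by edgeR), but 46 still met the definition of opposite responses, and 39 met it whichever library was left out. Those named above that no longer met it without the 2 libraries were IL21R, CLEC2D, EDEM1, AEN, CDKN1A, SNHG1, SNHG3, GINS3, TXNIP, SLC7A1, SLC1A4 and LARS with the rise in U266. With the rise in MM.1S they were PARP9, SAMD9L, IFIH1, CASP1, ELL2, FDFT1, ALDOC, PCTP, MSN, ADD1, PRKCD, MAP2K2 and IRS1. ELL2, for example, had an adjusted p of 0.188 in MM.1S then, and EDEM1 0.124 (edgeR). The median difference of the 94 was 0.51 on the log2 scale, regardless of sign. With the length trend taken out 134 genes met the definition, 71 of the 94 and others. TNFRSF17, SNHG12 and CDK6 were not among them, although their differences stayed called (adjusted p 2.9e-06, 9.7e-04 and 9.8e-05 by edgeR), nor were SNHG1, EDEM1, ALDOC, PRKCD, MAP2K2, SLC7A1, SLC1A4 and LARS.

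Only 5 well expressed genes had a response restricted to U266, and all 5 rose there. They were DNAJB1, ATF3, TRPV3, IER5 and NFKBIA. DNAJB1 encodes the HSP40 co-chaperone that works with HSP70. It was at 195, 197 and 195 CPM under DMSO and 456, 378 and 424 under IT848 in U266, and at 102, 111 and 107 CPM under DMSO and 99.4, 105 and 108 under IT848 in MM.1S. Treated U266 libraries were, by the fit, 2.14 times the controls, whereas in MM.1S the groups overlapped, with a log2 fold change of −0.03 ± 0.06. ATF3, a stress-induced transcription factor gene, was at 51.5, 52.5 and 49.4 CPM under DMSO and 95.2, 88.2 and 97.5 under IT848 in U266. In MM.1S it was at 80.7, 82.4 and 89.4 CPM under DMSO and 72.6, 75.9 and 85.2 under IT848, so that untreated MM.1S stood between untreated and treated U266, closer to the latter. The differences of responses were −1.13 ± 0.08 (adjusted p 8.9e-07) for DNAJB1 and −0.98 ± 0.09 (adjusted p 5.4e-06) for ATF3 by edgeR's quasi-likelihood test.

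NFKBIA encodes IkBa, the inhibitor that holds NF-kB in the cytoplasm and that NF-kB itself induces. Its level was 33.2, 32.6 and 32.8 CPM under DMSO and 50.5, 48.1 and 50.4 under IT848 in U266 and 15.6, 15.1 and 15.2 CPM under DMSO and 16.6, 16.3 and 15.5 under IT848 in MM.1S. The rise in U266 was 0.60 ± 0.05 and the change in MM.1S 0.07 ± 0.05, a difference of −0.52 ± 0.07 (adjusted p 1.3e-04) by the same test. IER5, an early response gene known to act with HSF1, had log2 fold changes of 0.64 in U266 and −0.06 in MM.1S, and the cation channel gene TRPV3 of 0.85 in U266 and 0.13 in MM.1S. Without the 2 libraries with genes of the other line all 5 differences stayed called, and 4 met the definition, NFKBIA being the exception (0.58 in U266 and 0.07 in MM.1S). With the length trend taken out DNAJB1 and IER5 met it, while ATF3 then also fell and TRPV3 also rose in MM.1S past the threshold. DNAJB1 and IER5 were also the 2 that met it whichever library was left out.

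**Figure D3:**
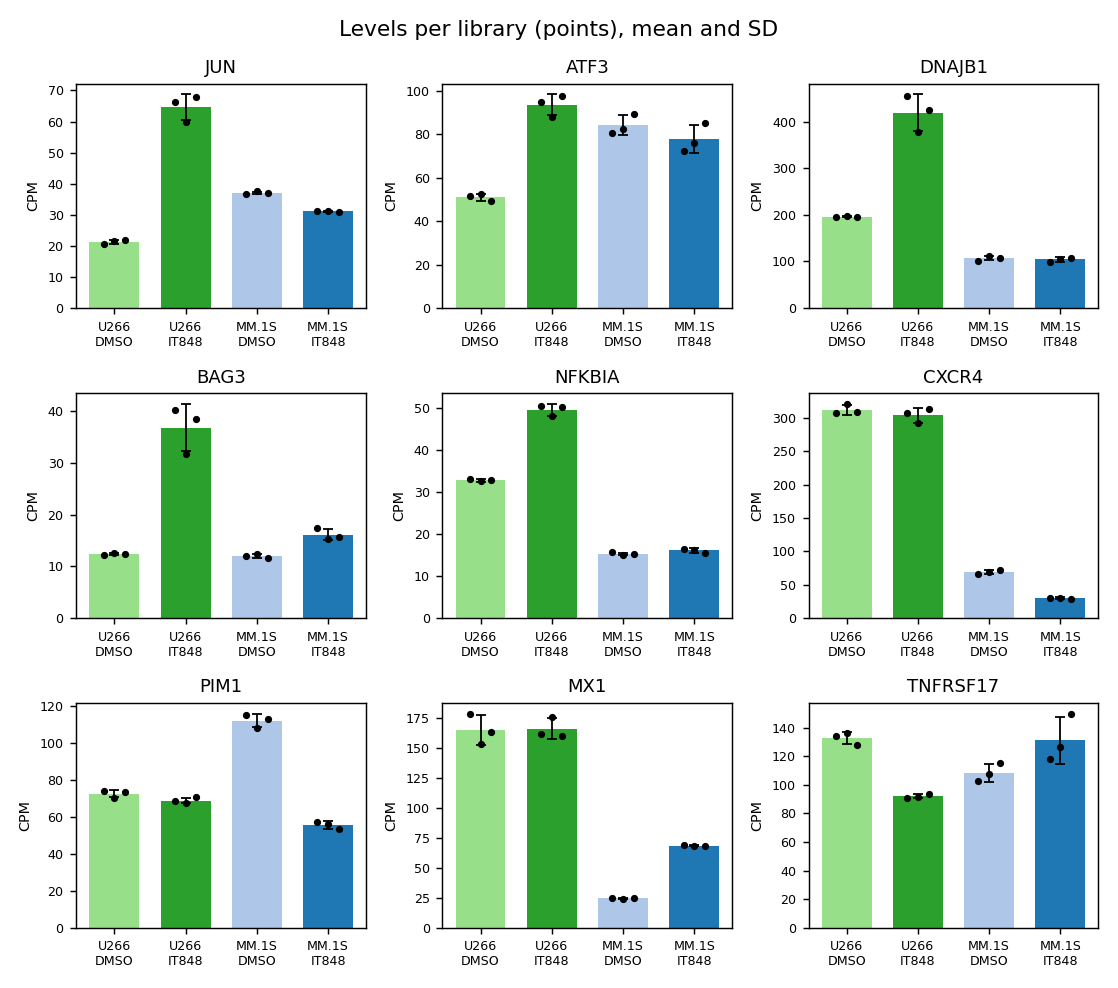
Level in CPM of 9 named genes in each library (points), with the mean of each group of 3 (bars) and its SD. JUN, ATF3, DNAJB1, BAG3 and NFKBIA rise with IT848 in U266, CXCR4 and PIM1 fall and MX1 rises in MM.1S, and TNFRSF17 moves in opposite directions.

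In MM.1S 87 well expressed genes rose with no more than a small change in U266. They held 6 of 29 well expressed NRF2 genes, 4 of 31 proteasome genes and 3 of 19 interferon-stimulated genes of the lists used here. The 87 were of 7848 well expressed genes, and with the falls counted too, 1.80% of these were restricted to MM.1S. MSRB1, a selenoprotein gene that repairs oxidised methionine, was at 9.27, 8.31 and 10.2 CPM under DMSO and 27.1, 31 and 34.8 under IT848 in MM.1S. In U266 it was at 15, 14.4 and 14.7 CPM under DMSO and 15.9, 15.9 and 15.7 under IT848. It rose by 1.74 ± 0.09 in MM.1S against 0.10 ± 0.09 in U266, the largest difference of the class, at 1.63 ± 0.12 (adjusted p 9.9e-07) by edgeR's quasi-likelihood test. Its untreated MM.1S libraries averaged 9.3 CPM, so it passed the level of 10 CPM there through its treated libraries. GLRX, which encodes glutaredoxin, rose from 82.9, 83.2 and 95.9 to 152, 188 and 227 CPM in MM.1S and stood at 66.5, 66.1 and 65.2 and 71.5, 69.7 and 64.6 in U266.

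TALDO1 encodes transaldolase, of the pentose phosphate pathway that supplies NADPH. It rose in MM.1S from 82, 83.8 and 91.1 to 184, 193 and 204 CPM. In U266 it was at 41.4, 38.3 and 38.9 CPM under DMSO and 40.6, 35.7 and 38.7 under IT848, with overlapping groups and a log2 fold change of −0.04 ± 0.06. Of 29 well expressed NRF2 genes 6 were restricted to MM.1S (1.80% of all well expressed genes), all rising: TALDO1, TKT, which encodes transketolase (0.08 in U266 and 0.59 in MM.1S), PGD, of the same pathway (0.01 in U266 and 0.59 in MM.1S), BLVRB, a biliverdin reductase gene (0.15 in U266 and 1.0 in MM.1S), FECH, which encodes ferrochelatase, the last enzyme of heme synthesis (0.11 in U266 and 0.76 in MM.1S), and ABHD4 (0.17 in U266 and 0.74 in MM.1S). Of these TALDO1 and BLVRB come from the naming rule and the others complete the count. CBR1, a carbonyl reductase gene picked out after its values were seen, had log2 fold changes of −0.06 in U266 and 0.83 in MM.1S.

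MX1, which encodes an antiviral GTPase, was at 24.8, 23.9 and 24.8 CPM under DMSO and 69.2, 68.5 and 68 under IT848 in MM.1S. In U266 it was at 179, 154 and 163 CPM under DMSO and 162, 177 and 161 under IT848, so the untreated level was far higher there and its groups overlapped (0.01 ± 0.05). BST2, which encodes tetherin, had log2 fold changes of 0.12 in U266 and 0.83 in MM.1S. ATP6V0A1, a subunit gene of the proton pump of lysosomes, rose in MM.1S from 120.4, 115 and 113 to 329.5, 288 and 256 CPM against 177, 170 and 170 and 184, 184 and 196 in U266. The microtubule gene MAP2 had log2 fold changes of 0.10 in U266 and 1.73 in MM.1S, the dynein chain gene DYNC1I1 of 0.04 in U266 and 1.06 in MM.1S, and the long noncoding RNA gene LINC00152 of 0.05 in U266 and 1.05 in MM.1S. MAP2 is the gene in which reads of U266 weigh most in DMSO replicate 2 of MM.1S, and its difference was 1.74 without the 2 libraries. Proteasome subunit genes PSMC6 (0.10 in U266 and 0.78 in MM.1S) and PSMD13 (0.12 in U266 and 0.65 in MM.1S) were also restricted to MM.1S. PSMC2 and PSMC4 complete a count of 4 of 31 (1.80% of all well expressed genes).

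A few further rises restricted to MM.1S were also picked out after their values were seen. FAS, the death receptor gene, was at 85.5, 75 and 85 CPM under DMSO and 116, 126 and 137 under IT848 in MM.1S. Its U266 libraries were at 82.5, 89.9 and 88.6 CPM under DMSO and 84.2, 96.6 and 88.3 under IT848. LGALS1, which encodes galectin 1, had log2 fold changes of 0.00 in U266 and 0.61 in MM.1S, TMSB4X, which encodes thymosin beta 4 and binds actin, 0.00 in U266 and 0.62 in MM.1S, GSN, which encodes gelsolin, −0.06 in U266 and 0.70 in MM.1S, and ANXA2, an annexin gene, 0.09 in U266 and 0.64 in MM.1S. Others were MSMO1, of sterol synthesis (−0.09 in U266 and 0.62 in MM.1S), ADH5, which encodes the glutathione-dependent formaldehyde dehydrogenase (−0.05 in U266 and 0.61 in MM.1S), and VDAC3, a mitochondrial pore gene (0.07 in U266 and 0.86 in MM.1S). TMSB4X and ANXA2 have near-identical pseudogenes, for which counts are less certain.

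Promoters of these genes and of the other classes were searched for the same set of short motifs. Both strands were searched, in the 250 bases before the RefSeq start (GRCh38.p14). The core of the antioxidant response element, to which NRF2 binds with small MAF proteins, was spelled TGACNNNGC, and it lay in 21.8% of the 78 promoters found for the 87 rising genes, against 12.4% of 6583 promoters of well expressed genes. It lay in 20.5% of the 44 promoters found for the 54 genes that fell in MM.1S alone. There the promoter shared by RTEL1 and RTEL1-TNFRSF6B counts for each symbol. It lay in 2.70% of the 37 found for the 44 genes that rose in U266 and fell in MM.1S. The windows of 3 rising genes are shown as examples, 5′ to 3′ along the gene, with the match in capitals.
CBR1, chr21:36069835-36069903, plus strand: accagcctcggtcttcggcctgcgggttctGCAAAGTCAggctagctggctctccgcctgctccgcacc
PGD, chr1:10398833-10398901, plus strand: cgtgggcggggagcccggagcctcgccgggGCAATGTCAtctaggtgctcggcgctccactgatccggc
FECH, chr18:57586703-57586770, minus strand: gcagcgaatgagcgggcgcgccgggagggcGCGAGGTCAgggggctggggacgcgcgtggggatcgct
The interferon-stimulated response element core GAAANNGAA was in 3.85% of the rising genes' promoters and 5.32% of all, and BST2 held 2 overlapping matches.
BST2, chr19:17405716-17405790, minus strand: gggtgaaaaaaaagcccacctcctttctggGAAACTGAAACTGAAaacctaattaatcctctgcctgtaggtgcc
Of the other motifs searched, the NF-kB site was in 11.5% of the rising genes' promoters against 7.37% of all, and the EGR site in 2.56 against 1.08%. The heat shock element core was in 3.85 against 3.9%, the E-box in 5.13 against 9.71% and the CRE in 1.28 against 3.45%. For the C/EBP-ATF element the shares were 0 and 0.334%. A match is a run of letters and no proof of binding, and motifs outside these windows were not searched.

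The 54 genes restricted to MM.1S that fell there, of 7848 well expressed, held 11 of the 46 well expressed replication genes listed. Rises and falls together, 1.80% of all well expressed genes were restricted to MM.1S. CXCR4, the chemokine receptor that holds plasma cells in the marrow, fell from 65.3, 69 and 72.4 to 30.7, 29.7 and 27.8 CPM in MM.1S. In U266, where it was higher, it was at 308, 321 and 309 CPM under DMSO and 307, 292 and 314 under IT848. The groups were far apart in MM.1S and overlapped in U266 (−1.23 ± 0.05 against −0.04 ± 0.05), a difference of −1.19 ± 0.07 (adjusted p 7.9e-08) by edgeR's quasi-likelihood test. PIM1, a survival kinase gene induced by STAT3, was at 115, 108 and 113 CPM under DMSO and 57.2, 56.1 and 53.2 under IT848 in MM.1S. In U266 it was at 74.1, 70.3 and 73.1 CPM under DMSO and 68.3, 67.4 and 70.4 under IT848, and its difference of responses was −0.93 ± 0.06 (adjusted p 2.9e-07). IGF1R, the growth factor receptor gene, had log2 fold changes of −0.02 in U266 and −0.85 in MM.1S, PDE4B, a phosphodiesterase gene for cyclic AMP, of −0.09 in U266 and −0.88 in MM.1S, and CABLES1, a gene for a binding partner of cyclin-dependent kinases, of −0.07 in U266 and −0.91 in MM.1S. NFKBIZ, which encodes the nuclear IkB protein IkBζ and is induced by NF-kB, was at 15, 15.3 and 14.1 CPM under DMSO and 10.1, 9.81 and 7.99 under IT848 in MM.1S. Its U266 libraries were at 26.4, 25.6 and 26.4 CPM under DMSO and 26.6, 26.7 and 26.5 under IT848. TLE3, a corepressor gene, had log2 fold changes of 0.13 in U266 and −0.62 in MM.1S. It met the definition of opposite responses with the length trend taken out, and also with a term for replicate number in the fit. IQGAP2, a scaffold gene, had log2 fold changes of 0.09 in U266 and −0.69 in MM.1S. IQGAP2 is the member in which reads of MM.1S weigh most in IT848 replicate 1 of U266: its U266 levels were 12.9, 10.7 and 11.7 CPM under DMSO and 15.1, 11.9 and 10.6 under IT848, and its change there was −0.07 without the 2 libraries.

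Of 46 well expressed G1/S and replication genes, 11 were restricted to MM.1S (1.80% of all well expressed genes), all falling. E2F8, an E2F family gene, was at 83.4, 77.8 and 81.7 CPM under DMSO and 55.1, 48.5 and 45.3 under IT848 in MM.1S. Its U266 libraries were at 58.1, 58.9 and 59.9 CPM under DMSO and 60.6, 61.7 and 62.1 under IT848. MCM10, of the replication fork, had log2 fold changes of 0.00 in U266 and −0.73 in MM.1S, CLSPN, the checkpoint adaptor claspin, of −0.05 in U266 and −0.73 in MM.1S, and UHRF1, which carries DNA methylation through replication, of −0.02 in U266 and −0.70 in MM.1S. The others, given to complete the count, were DTL, MCM2, MCM3, POLD1, EXO1, E2F1 and E2F2, with changes of −0.75 (DTL) to −0.59 (EXO1) in MM.1S and of −0.14 (E2F1) to 0.02 (EXO1) in U266. TP53INP1, a stress gene induced by p53, had log2 fold changes of −0.07 in U266 and −0.79 in MM.1S, NOLC1, a nucleolar gene, of −0.09 in U266 and −0.63 in MM.1S, MYBBP1A, another nucleolar gene, of −0.16 in U266 and −0.69 in MM.1S, and ERN1, which encodes the unfolded protein sensor IRE1, of −0.11 in U266 and −0.60 in MM.1S.

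A few other falls restricted to MM.1S were picked out after their values were seen. PRKDC, the catalytic subunit gene of DNA-PK, had log2 fold changes of −0.09 in U266 and −0.66 in MM.1S, FANCA, of the Fanconi anaemia pathway, −0.10 in U266 and −0.63 in MM.1S, BRIP1, a helicase gene of the same pathway, −0.14 in U266 and −0.68 in MM.1S, and NASP, a histone chaperone gene, 0.09 in U266 and −0.64 in MM.1S. TFRC, the transferrin receptor gene, fell in MM.1S from 323, 330 and 325 to 218, 209.8 and 199.5 CPM. Its U266 libraries were at 560.2, 592 and 571 CPM under DMSO and 502, 566 and 530.2 under IT848. CAD, which encodes the enzyme that starts pyrimidine synthesis, had −0.13 in U266 and −0.66 in MM.1S, and ETS1, a transcription factor gene of lymphocytes, −0.08 in U266 and −0.69 in MM.1S. Some symbols share transcripts, as RTEL1 and RTEL1-TNFRSF6B do here, and CCPG1 and STBD1 with their readthrough symbols among the rises, so the 141 symbols are fewer separate genes.

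The E2F core TTCCCGC, another of the motifs searched, lay in 18.2% of the 44 promoters found for the falling genes. It was in 10.3% of the 78 of the rising genes and 10% of 6583 in all. Of the 11 replication genes restricted to MM.1S, DTL, MCM3 and UHRF1 held it, and their windows are shown with the matches in capitals.
DTL, chr1:212035610-212035676, plus strand: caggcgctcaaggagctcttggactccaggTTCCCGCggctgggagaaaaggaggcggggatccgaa
MCM3, chr6:52284743-52284945, minus strand: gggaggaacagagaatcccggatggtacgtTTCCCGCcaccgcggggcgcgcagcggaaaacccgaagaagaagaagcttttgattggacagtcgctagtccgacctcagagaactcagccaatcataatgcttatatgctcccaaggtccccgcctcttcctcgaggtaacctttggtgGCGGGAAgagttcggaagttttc
UHRF1, chr19:4909367-4909500, plus strand: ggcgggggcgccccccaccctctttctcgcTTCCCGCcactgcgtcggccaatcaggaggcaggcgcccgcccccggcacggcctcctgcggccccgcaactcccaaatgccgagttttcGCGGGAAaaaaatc
The windows of MCM3 and UHRF1 hold 2 matches each. Of the other motifs, the CRE was in 6.82% of the falling genes' promoters against 3.45% of all, and the EGR site in 2.27 against 1.08%. The NF-kB site was in 6.82 against 7.37%, the E-box in 4.55 against 9.71% and the heat shock element core in 2.27 against 3.9%. The interferon-stimulated response element core was in 2.27 against 5.32%, and the C/EBP-ATF element in 0 against 0.334%.

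**Figure D4:**
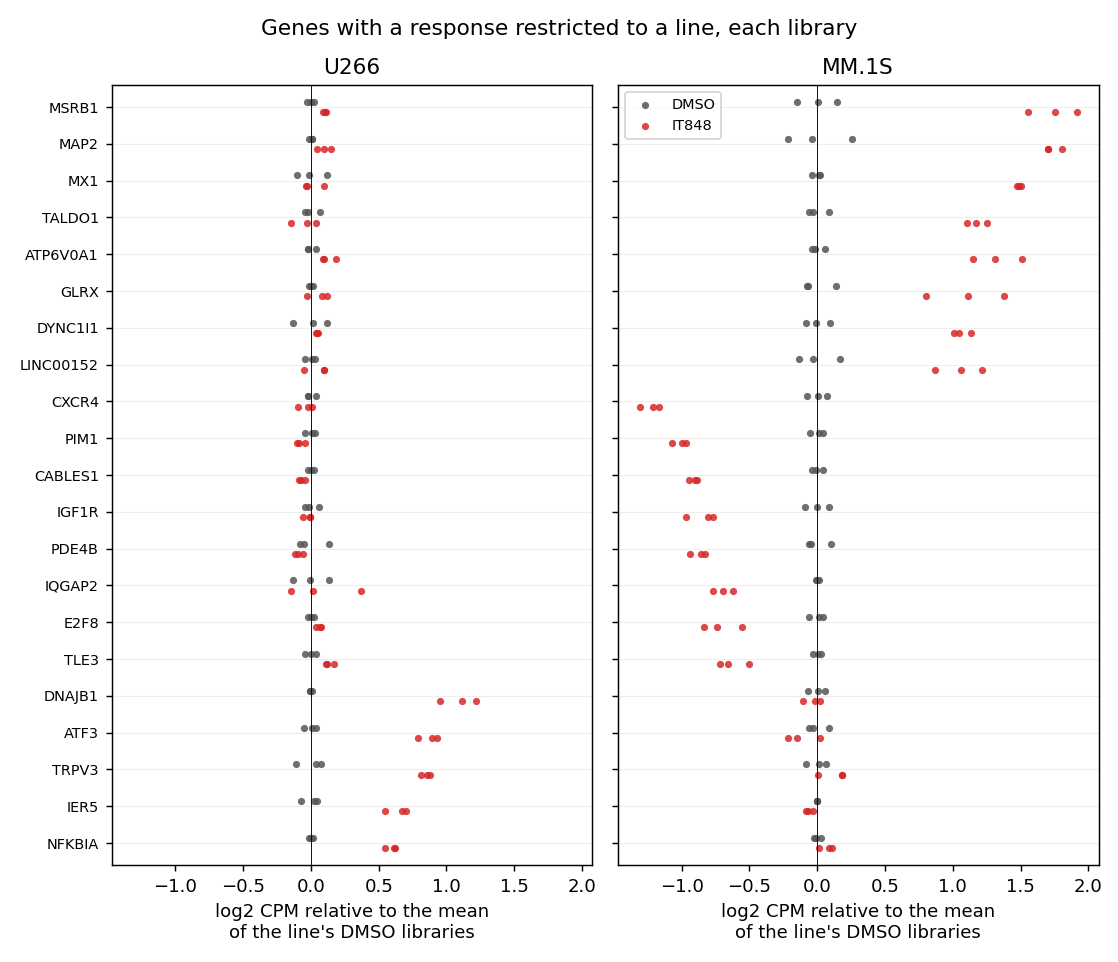
Level of the named genes with a response restricted to a line in each library, as log2 CPM relative to the mean of the DMSO libraries of its line (grey points DMSO, red points IT848, 3 libraries each). The upper 16 genes move in MM.1S and stay near 0 in U266, IQGAP2 being the most spread there, and the lower 5 genes move in U266.

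The restricted classes were unlike in length and in untreated level. The 87 genes that rose in MM.1S alone had a median transcript of 2228 bases and the 54 that fell a median of 4557.5, against 3223 for all well expressed genes. Treated MM.1S libraries were also those with relatively more of short transcripts. With that length trend taken out, all 141 differences stayed called, while 48 of the 87 and 33 of the 54 met the definition of restricted, among 111 genes that did. TLE3 then met that of opposite responses. FECH, MYBBP1A and PSMC4 then changed in both lines, and IQGAP2, CLSPN, EXO1, PGD, TKT, PSMC2, PSMD13, ERN1, MSMO1, ADH5, LGALS1, TMSB4X, ANXA2, PRKDC, BRIP1, FANCA, TFRC and CAD could not be placed. Under DMSO, 64 of the 87 rising genes were higher in U266 and 40 of the 54 falling genes were higher in MM.1S, whereas of all well expressed genes 3852 of 7848 were higher in U266 and 3996 in MM.1S. Treated and control groups did not overlap in MM.1S for 141 of the 141 (60.5% of well expressed genes had no overlap there), and in U266 for 56 (36.7%), counts that follow in part from the definition. The untreated MM.1S libraries enter both the level and the response, so the order of levels is a description with no test. When the 2 libraries with genes of the other line were left out, 137 of the 141 differences stayed called, and the 112 that still met the definition were 67 of the rising and 45 of the falling genes. BLVRB, TKT, PGD, ABHD4, PSMC6, FAS and FANCA were among those that did not. Whichever of the 12 libraries was left out, 66 of the 141 met the definition, 36 rising and 30 falling. MSRB1 met it in 8 of these 12 fits, GLRX in 7, ERN1 in 4 and IQGAP2 in 2.

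Among the 218 genes that moved in the same direction by unequal amounts, NRF2 genes responded further in MM.1S. NQO1, a quinone reductase gene, rose from 41.2, 44.4 and 43.3 to 80.8, 76.1 and 81.5 CPM in U266. In MM.1S it rose from 21.2, 23.1 and 20.6 to 152, 163 and 189 CPM, a difference of responses of 2.07 ± 0.10 (adjusted p 1.4e-08) by edgeR's quasi-likelihood test. FTL, the ferritin light chain gene, which has many near-identical copies, had log2 fold changes of 0.52 in U266 and 2.35 in MM.1S. SLC7A11, the cystine importer gene, had 0.66 in U266 and 2.12 in MM.1S. In MM.1S it averaged 6.83 CPM under DMSO and 29.6 under IT848, so it counts as well expressed there through its treated libraries. ABCB6, a porphyrin transporter gene, had 0.98 in U266 and 2.37 in MM.1S, and HMOX1, of heme degradation, 4.73 in U266 and 6.08 in MM.1S. P4HA2, a collagen prolyl hydroxylase gene, had log2 fold changes of 1.05 in U266 and 3.11 in MM.1S, and the autophagy genes GABARAPL1 and SQSTM1 of 0.60 in U266 and 1.81 in MM.1S and of 0.84 in U266 and 1.89 in MM.1S. Among falls, CCND2, which encodes cyclin D2, had log2 fold changes of −0.16 in U266 and −0.96 in MM.1S, CIITA, which switches on antigen presentation genes, of −0.42 in U266 and −1.24 in MM.1S, and BCL2L11, which encodes the death protein BIM, of −0.21 in U266 and −0.61 in MM.1S.

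Chaperone genes were divided between the lines. HSPB1, a small heat shock protein gene, rose further in MM.1S, from 13.6, 11.7 and 13.5 to 128, 119.9 and 115 CPM against 29.8, 25.7 and 27.4 to 84.4, 68 and 79.9 in U266. HSP90AA1, the inducible HSP90 gene, also rose further there (1.38 in U266 and 2.46 in MM.1S). BAG3, a co-chaperone gene, rose further in U266, from 12.1, 12.6 and 12.3 to 40.3, 31.7 and 38.5 CPM against 12, 12.4 and 11.7 to 17.4, 15.3 and 15.7 in MM.1S. Its difference of responses was −1.16 ± 0.12 (adjusted p 1.6e-05), and that of HSPB1 1.73 ± 0.12 (adjusted p 4.9e-07), by edgeR's quasi-likelihood test. Others that rose further in U266 were CHORDC1, another co-chaperone gene (0.70 in U266 and 0.28 in MM.1S), PPP1R15A, which encodes the phosphatase subunit that reverses eIF2a phosphorylation (0.91 in U266 and 0.30 in MM.1S), GADD45A, a growth arrest gene (0.90 in U266 and 0.28 in MM.1S), NSMAF (0.71 in U266 and 0.30 in MM.1S) and TBL1X, a corepressor subunit gene (0.53 in U266 and 0.13 in MM.1S).

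Gene lists show how widely these patterns ran. They are described by counts, beside 8.49% of all genes with a called difference higher in MM.1S, 8.94% with one lower, and a median difference of −0.02 over all genes tested. Of the 7848 well expressed genes, 1035 were called higher and 1052 lower. Without the 2 libraries with genes of the other line, 877 of all genes were called higher and 835 lower. Of 36 NRF2 genes, 30 had a called difference higher in MM.1S and 0 lower, with a median difference of 0.68. Proteasome genes were higher for 27 of 31 and lower for 0 (median 0.42), and interferon-stimulated genes higher for 20 of 41 and lower for 2 (median 0.33). Without the 2 libraries with genes of the other line these counts were 29, 22 and 16 higher and 0 lower in each. In U266 20 of the NRF2 genes rose and 0 fell (4.03 and 4.98% of all genes), while interferon-stimulated genes rose for 2 and fell for 6.

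Differences on the lower side in MM.1S were most frequent, of the 34 lists, among G1/S and replication genes, with 40 of 48 lower and 0 higher (median −0.41). Of the 48, 44 fell and 0 rose in MM.1S (19.6 and 18.7% of all genes), and 2 fell and 3 rose in U266. Ribosome biogenesis genes followed with 29 of 42 lower and 0 higher (median −0.29), among them POLR1E, a subunit gene of RNA polymerase I (0.04 in U266 and −0.51 in MM.1S). SR and hnRNP splicing genes were lower for 14 of 24 and higher for 0 (median −0.21), with HNRNPD at 0.01 in U266 and −0.58 in MM.1S and SRSF10 at −0.05 in U266 and −0.43 in MM.1S. The lower counts were 30, 20 and 6 without the 2 libraries.

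The stress lists that rise in U266 were split. Immediate early genes had 16 of 39 lower in MM.1S and 4 higher, with medians of 0.29 in U266 and −0.11 in MM.1S. Of them 15 rose and 4 fell in U266, and 5 rose and 16 fell in MM.1S. For these and the next lists, the shares of all genes were 4.03% rising and 4.98% falling in U266. In MM.1S they were 18.7 and 19.6%, so equal counts in the lines stand against unlike shares. ETV5, an ETS factor gene, was 1 of the 4 higher ones (0.37 in U266 and 0.95 in MM.1S). ATF4 genes were lower for 13 of 41 and higher for 5, although most rose in both lines (34 in U266, 24 in MM.1S, 3 falling in MM.1S). SLC7A5, an amino acid transporter gene, had log2 fold changes of 0.55 in U266 and −0.12 in MM.1S. Heat shock genes were higher for 7 of 29 and lower for 8, and 22 rose in each line, with 1 falling in MM.1S. p53 targets were lower for 11 of 31 and higher for 4, with medians of 0.16 in U266 and −0.04 in MM.1S. The lower counts without the 2 libraries were 13, 8, 7 and 8 for the immediate early, ATF4, heat shock and p53 lists.

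NF-kB targets, the readout closest to the labelled action of IT848, had 4 of 41 higher in MM.1S and 6 lower, and a median difference of −0.08. Medians were −0.02 in both lines. In U266 3 of the 41 rose and 7 fell (4.03 and 4.98% of all genes). In MM.1S 7 rose and 14 fell (18.7 and 19.6% of all genes). The members that differed most moved in different ways: NFKBIA rose in U266 alone, NFKBIZ fell in MM.1S alone, CCND2 fell further in MM.1S, and CCL3, a chemokine gene with a near-identical copy, rose in MM.1S from 169, 178 and 202 to 562, 592 and 628 CPM. In U266 CCL3 was at 382, 357 and 368 CPM under DMSO and 314, 322 and 330.4 under IT848, lower in each treated library, with a change of −0.20 ± 0.06 that did not pass (adjusted p 0.053 by edgeR). With the length trend taken out that change passed, and CCL3 met the definition of opposite responses. It also met that definition with a term for replicate number in the fit. Without the 2 libraries with genes of the other line, 2 NF-kB targets were higher and 4 lower. Of 22 IL6-STAT3 genes, 4 were higher and 6 lower: IL6ST, the signalling receptor chain gp130, had log2 fold changes of −0.09 in U266 and −0.49 in MM.1S and SOCS2, a feedback gene, of −0.51 in U266 and −0.06 in MM.1S. Of 9 glucocorticoid genes 1 was higher and 5 lower, with FKBP5, a co-chaperone gene of the receptor, at −0.07 in U266 and −0.56 in MM.1S. Of the BCL2 family, 1 of 18 was higher and 4 lower, with BCL2 at −0.04 in U266 and −0.45 in MM.1S, and without the 2 libraries 0 were higher and 2 lower.

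In several lists of metabolism and growth more genes were higher than lower in MM.1S. Cholesterol and fatty acid synthesis genes were higher for 12 of 30 and lower for 1 (median 0.20), with MVK and IDI1, of the mevalonate pathway, at −0.08 in U266 and 0.49 in MM.1S and at −0.03 in U266 and 0.53 in MM.1S. Lysosome and autophagy genes were higher for 16 of 41 and lower for 1 (median 0.18), with TFEB, the lysosome factor gene, at −0.43 in U266 and 0.11 in MM.1S. G2/M genes were higher for 10 of 40 and lower for 0, with CCNB1, which encodes cyclin B1, at 0.03 in U266 and 0.54 in MM.1S, and without the 2 libraries for 5 and 0. Ribosomal protein genes had a median difference of 0.31 but 4 of 57 calls, and respiratory chain genes 0.21 and 3 of 53 higher and 1 lower, and neither list had a called difference without the 2 libraries. Both hold short transcripts (medians of 837 and 951 bases), and with the length trend taken out their medians were 0.08 and 0.03, against 0.26 for the proteasome, 0.68 for NRF2 and −0.47 for replication genes.

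**Figure D5:**
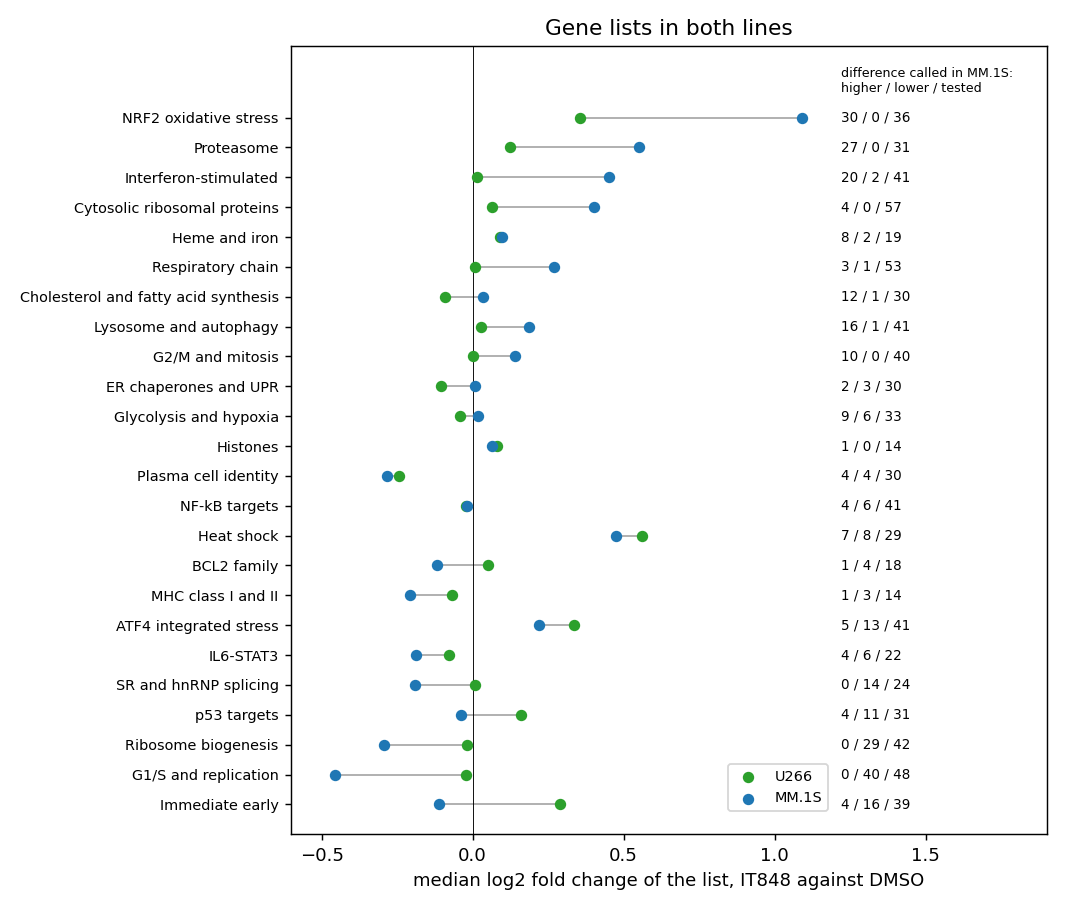
Median log2 fold change of each gene list under IT848 in U266 (green) and MM.1S (blue), for lists with at least 14 genes tested. Numbers at the right give the genes whose difference of responses was called higher in MM.1S, called lower, and tested, and NRF2 genes and replication genes lie at opposite ends in MM.1S.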

How the data were processed

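RNA from 12 libraries of 2 myeloma cell lines was sequenced as paired reads, per the labels' protocols. The series' design text speaks of exome sequencing, but the libraries are labelled, and the tables read, as RNA. The build was hg19 and the tools were, per the submitters' processing notes, STAR 2.5.2b, Trimmomatic 0.36, Subread 1.5.2 with its featureCounts, and bcl2fastq. Not given in the sources used here were the annotation release, the strand setting and the handling of multiply mapped reads. The authors deposited a raw count, an FPKM value (per kilobase and library total) and a TPM value (per kilobase, scaled to a fixed sum) for each of 51780 transcripts in each library. The counts were tested, and the deposited TPM values entered no test. Transcript length was recovered from the deposited counts and FPKM values, for the most counted transcript of each symbol. The FPKM values thus entered the fits with the length trend taken out, and no other test.

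Counts were summed over the transcripts of each of 25680 symbols, which counts reads shared by transcripts more than once, so totals exceed the reads and counting error is understated. Genes passed a minimum count of 10 (filterByExpr). All 12 libraries were fitted in edgeR 4.0.16 (R 4.3.3; TMM, robust quasi-likelihood), with Benjamini-Hochberg adjustment over 16782 genes and a threshold of 0.05. CPM values are TMM-scaled, and ± gives the standard error of a log2 fold change. Overlapping and antisense genes, and near-identical copies such as those of FTL and CCL3, cannot be told apart where counting was not by strand or unique position. The length trend was taken out with an offset per gene and library from a loess fit (span 0.5) of log2 CPM deviations on log2 transcript length. The fit was tested on simulated data before use. DESeq2 1.42.0, other factors and filters, the most counted transcript, a replicate block, the length offset and the removal of libraries were alternatives.

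Named genes were, among well expressed genes without readthrough, LOC, MIR, SNOR or SCARNA symbols, the 10 of each opposite orientation with the largest smaller change, the 8 of each restricted class and direction and the 6 of each unequal side with the largest difference, and up to 4 members of each of 34 gene lists by called difference. A gene that the rule named is not reported here. The classes, lists and members were chosen with earlier results of these data known. Restriction to a line required a change of at least 1.5-fold there and a 95% interval within 0.32 of 0 (log2) in the other. Promoters came from RefSeq (GRCh38.p14), while counts were made on hg19. Transcript accessions matched 16406 tested genes to RefSeq, current symbols 215 more and older symbols 97, and 64 had no match. Motif shares were given only for classes in which at least 80% of genes had a promoter. They are void for the 50 opposite genes that rose in MM.1S (36 found) and the 103 that rose further in MM.1S (82 found). Python 3.11.15, pandas 2.3.3 and matplotlib 3.10.9 were used.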

Additional observations from a re-analysis of the deposited data

Results flagged for a closer look

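The difference of responses between the lines was itself tested, and 2924 genes passed an adjusted threshold of 0.05 by edgeR's quasi-likelihood test. For the named genes with opposite or restricted responses the log2 difference, MM.1S minus U266, is given with its lowest and highest value when each of the 12 libraries was left out in turn.

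Among genes that fell in U266 and rose in MM.1S the differences were BRI3 1.33 (1.29 to 1.4), HDAC9 0.82 (0.78 to 0.87), SCN3A 1.70 (1.63 to 1.78) and AMACR 0.94 (0.91 to 1.01). Those of the other named genes of this orientation were LINC01480 0.96 (0.92 to 1.01), TNFAIP8L1 0.63 (0.57 to 0.69), CEACAM21 0.80 (0.78 to 0.86), TNFRSF17 0.80 (0.70 to 0.89) and KCNS3 0.63 (0.55 to 0.70). Among genes that rose in U266 and fell in MM.1S they were NLRP1 −0.97 (−1.07 to −0.89), GADD45B −0.80 (−0.84 to −0.73), IL21R −0.78 (−0.86 to −0.68), SESN2 −0.72 (−0.79 to −0.64) and CLEC2D −0.74 (−0.80 to −0.63). The other named genes of this orientation had SNHG12 −0.66 (−0.72 to −0.60), FBXO32 −1.19 (−1.25 to −1.12), IRF2BPL −0.61 (−0.64 to −0.56), TSC22D3 −0.68 (−0.71 to −0.65) and CDK6 −0.53 (−0.57 to −0.49). For the genes restricted to U266 the differences were DNAJB1 −1.13 (−1.19 to −1.05), ATF3 −0.98 (−1.05 to −0.92), TRPV3 −0.72 (−0.76 to −0.65), IER5 −0.70 (−0.74 to −0.65) and NFKBIA −0.52 (−0.54 to −0.49). No difference among these 24 changed sign in any of these fits. As the genes were chosen from these same libraries for large changes, that is a description.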

How the results depend on the processing

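Every alternative listed for these counts was run. The number of genes with a called difference, 2924, was 1712 without the 2 libraries that showed the other line's genes. It was 2208 (without DMSO replicate 1 of MM.1S) to 3870 (without IT848 replicate 1 of MM.1S) when each library was left out. DESeq2 called 3560, of which 2864 were shared with edgeR. Genes with opposite responses, 94, numbered 48 without the 2 libraries, 58 (without DMSO replicate 3 of U266) to 107 when each library was left out, and 42 when at least 50 CPM was asked in both lines. Genes restricted to MM.1S, 141, numbered 108 to 252 (the latter without IT848 replicate 1 of MM.1S), 66 from 50 CPM and 11 when at least 2-fold was asked. Genes restricted to U266, 5, numbered 3 with the length offset, 3 (without IT848 replicate 3 of MM.1S) to 6 when each library was left out, 9 from 1 CPM, 2 from 50 CPM and 1 when at least 2-fold was asked. Whether replicate numbers pair the libraries was not settled, and the main fit has no replicate block. Deviations of same-numbered libraries correlated at 0.324, 0.307 and −0.0545 in U266 and at 0.611, 0.0303 and 0.604 in MM.1S. Those of libraries with unlike numbers correlated at −0.350 to 0.0688 in U266 and at −0.645 to 0.221 in MM.1S. A replicate block gave 4388 called differences and 168 opposite genes, and with the length offset as well 194 opposite genes and 2 restricted to U266. Under the block TLE3, CCL3 and SLC7A5 were among the genes that met the definition of opposite responses. TRPV3 then also rose in MM.1S past the threshold, so it was not restricted to U266. The cause of these shifts was not tested. Of 2667 values of 127 named differences under these alternatives, 2539 kept direction and side of the threshold, 128 no longer passed and 0 reversed. The named genes were chosen from the main fit to these libraries, so these counts are a description. The 3 libraries a group, of unstated origin, limit what the intervals cover.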
